A study of Mus musculus with 32 samples.

Results

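Gene expression was compared between stroma and tumor in mice without EP2, a receptor for prostaglandin E2 whose gene is Ptger2. The comparison took the 8 arrays titled as EP2-/- stroma and the 8 titled as EP2-/- tumor, which are 16 of the 32 arrays of the series; the other 16 came from wild-type hosts. Every host carried MCG 101, a transplantable sarcoma originally raised in mice with the carcinogen methylcholanthrene. Both groups therefore share the EP2 deletion of the host, and the labels name no genotype for the implanted cells. Per the labels, 4 of the 8 arrays in each tissue came from female and 4 from male hosts, and no age, strain or time after implantation is given. The title numbers 12, 51, 59B, 15, 81, 95 and 99 occurred in both tissues and formed 7 pairs, while stroma S49 and tumor T149 had no partner. The labels do not say that a number stands for 1 animal. P-values therefore measure the spread between these samples.

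Stroma at the edge of a sarcoma can hold the host tissue that the tumor grows into, with its muscle, fat, nerves, vessels, fibroblasts and immune cells. Prostaglandin E2 is made from arachidonic acid by the cyclooxygenases and by prostaglandin E synthases, and EP2 couples it to Gs and to a rise of cAMP in the receiving cell. Transplantable sarcomas of this kind are used to study how host prostaglandin signalling bears on tumor growth and on the loss of muscle and fat known as cachexia. In these bulk samples fewer cells of a type and less RNA per cell cannot be told apart.

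Between 53.5% and 62.3% of the probes were well above background on the 16 arrays, and no spot was saturated. All levels below are log2 signals relative to the 75th percentile of the array, and all differences are stroma minus tumor on the log2 scale. On the first principal component, with 72.1% of the variance, the 2 tissues did not overlap. Stroma 12 (58.4) lay nearest to the tumor arrays, and the remaining 7 arrays of that tissue spanned 130.8 to 172.1. Tumor 15 (-63.6) and tumor 81 (-64.9) lay nearest to the stroma arrays, and the other 6 tumor arrays ran from -189.96 to -131.1. The sex labels were compared with sex-linked genes. The Y-linked Ddx3y was -0.36 and -0.46 in stroma 15 and 81 and -3.16 and -2.61 in tumor 15 and 81, against -7.58 to -6.59 on the other 12 arrays. Numbers 95 and 99 are labelled male, and in both tissues they were at the level of the arrays labelled female. Their 4 arrays thus went against their sex label, and each result was also computed without them. The inactive X transcript Xist was -7.20 and -6.39 in stroma 15 and 81, against -1.82 to -0.31 on the other 6 stroma arrays. On the tumor arrays it was lower, from -5.29 to -3.78 apart from numbers 15 and 81.

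**Figure D1:**
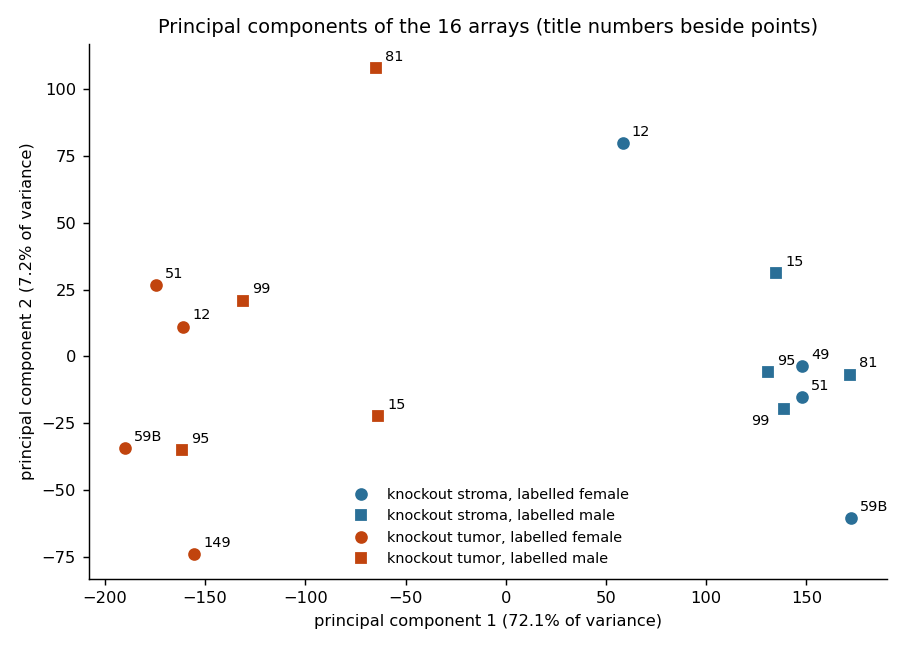
First and second principal components of the genes tested, 1 point per array, coloured by tissue and shaped by the labelled sex, with the title number beside each point. The component on the x axis (72.1% of the variance) separates the tissues, with stroma 12, tumor 15 and tumor 81 nearest to the other tissue.

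Expression differed between the tissues at most genes measured. By limma with Benjamini-Hochberg adjustment, 16668 of 24736 genes tested (67.4%) passed an adjusted p under 0.05. Of these, 7549 (30.5% of the genes tested) were higher in stroma and 9119 (36.9%) higher in tumor. An unadjusted p under 0.05 was reached by 17285 genes (69.9%). Past a 2-fold difference 10532 genes (42.6%) passed, 5178 (20.9%) higher in stroma and 5354 (21.6%) higher in tumor. All 8 stroma arrays lay above all 8 tumor arrays for 3221 genes (13%) and below them for 4828 genes (19.5%). The median over all genes tested was -0.067, and every list below is to be read against that value and those shares. It moved to -0.15 with quantile scaling and to 0.14 when only bright probes set the 75th percentile. Without stroma 12, tumor 15 and tumor 81 the test called 16303 genes, and without numbers 95 and 99 it called 14588. Each list was also counted under 35 alternatives, including the strict filter that tests a gene only if it is above background on every array. Alternatives in male or female hosts go by the label. The male ones therefore include numbers 95 and 99, whose sex-linked genes went against it. Where an alternative moved a count by at least 2 genes and over 1.5 times or turned the median, the counts are given toward stroma first, and "the 3 arrays" are stroma 12, tumor 15 and tumor 81.

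Skeletal muscle transcripts were higher in stroma. All 26 of 26 members of the sarcomere list were higher in stroma, against 30.5% of all genes tested (median difference 6.63), and for 22 of them the groups did not overlap. Ckm, the muscle creatine kinase, had a lowest, median and highest level of 6.88, 7.48 and 8.81 in stroma and -6.57, -0.18 and 4.75 in tumor, a difference of 7.93 ± 0.92 (SE, adjusted p = 1.82e-06). Neb, the giant thin-filament protein nebulin, was 4.65, 6.72 and 7.14 in stroma and -6.55, -0.59 and 3.44 in tumor, with a difference of 7.33 ± 0.83 (SE, adjusted p = 1.43e-06). Every stroma array was above every tumor array for both genes, while the tumor arrays spread over a far wider range than the stroma arrays. The calcium channel subunit Cacna1s (7.32 ± 0.82 SE, adjusted p = 1.27e-06) and the calcium buffer parvalbumin, Pvalb (7.43 ± 0.80 SE, adjusted p = 9.12e-07), were also separated without overlap. Muscle genes outside the list were among the 15 largest differences: Asb2, a muscle ubiquitin ligase component (8.10 ± 0.72 SE, adjusted p = 1.61e-07), Mypn, the sarcomere protein myopalladin (8.05 ± 0.77 SE, adjusted p = 3.14e-07), Ampd1, the muscle AMP deaminase (7.92 ± 0.73 SE, adjusted p = 2.19e-07), and Trdn, the junctional protein triadin (7.58 ± 0.84 SE, adjusted p = 1.14e-06). On the arrays the mean of the sarcomere list ran from 5.96 to 8.04 in stroma and -3.94 to 5.43 in tumor. Tumor 15 (5.43) and tumor 81 (4.17) were the highest tumor arrays, tumor 59B the lowest (-3.94), and stroma 12 the lowest stroma array (5.96). The difference was positive in 7 of 7 pairs (2.02 to 11.8) and on 4 of 4 slides that held both tissues (2.99 to 7.11). The list means did not overlap between the tissues, so these signs could not differ. The sarcomere counts became 14 and 0 of 14 (median 6.19) under the strict filter. The sarcomere list moved together with the groups described next, and its part in their differences was not tested.

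**Figure D2:**
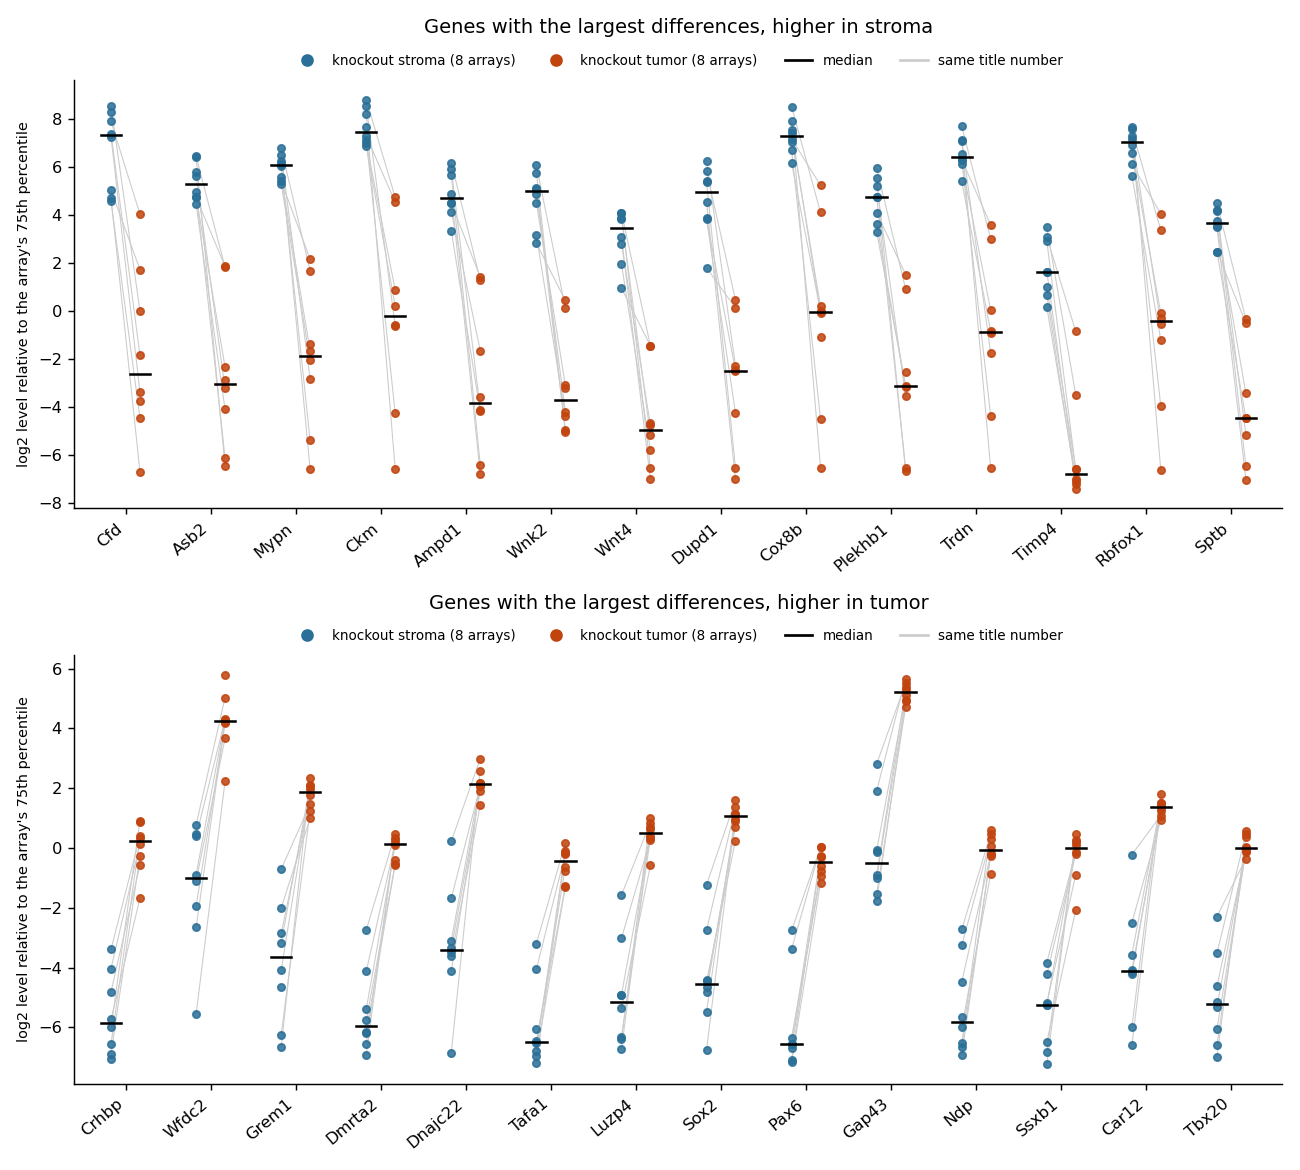
Log2 level relative to the array's 75th percentile of 14 genes with the largest called differences in each direction, 1 point per array, with the median as a bar and grey lines joining arrays of the same title number. The groups do not overlap for any of these genes, because the choice of genes required that; for most genes in the upper panel the 2 highest tumor points are tumor 15 and tumor 81.

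Genes of muscle energy use and of muscle wasting followed the same direction. In the list of fatty acid oxidation and creatine metabolism 15 of 16 tested members were higher in stroma and 1 higher in tumor (median difference 1.44). Ppargc1a, a coactivator of mitochondrial genes, was -0.74, 0.78 and 1.80 in stroma and -7.30, -6.99 and -0.75 in tumor, a difference of 6.58 ± 0.69 (SE, adjusted p = 7.48e-07). Fabp3, the fatty acid binding protein of muscle, differed by 5.44 ± 0.55 (SE, adjusted p = 5.27e-07), and the groups were separate for both genes. Cpt1a, the form of carnitine palmitoyltransferase found outside muscle, went the other way by -0.75 ± 0.22 (SE, adjusted p = 0.00703), and that call ended when slide entered as a fixed block (-0.65, adjusted p = 0.131), without numbers 95 and 99 (-0.56, adjusted p = 0.122) and in male hosts alone. In the cachexia list 15 of 18 tested members were higher in stroma and 1 higher in tumor (median difference 2.82). Its ubiquitin ligases Trim63 and Fbxo32, the markers of muscle atrophy, differed by 7.40 ± 0.92 (SE, adjusted p = 4.03e-06) and 6.97 ± 0.64 (SE, adjusted p = 2.22e-07). The glucocorticoid-induced factor Klf15 differed by 7.45 ± 0.58 (SE, adjusted p = 5.62e-08) and Mstn, which encodes the growth inhibitor myostatin, by 7.02 ± 0.61 (SE, adjusted p = 1.22e-07). Stroma exceeded tumor on all arrays for these 4 genes, and 0 of the tumor arrays reached the lowest stroma level. Trim63, Fbxo32 and Mstn are themselves muscle genes, and the part of the sarcomere list's level in their differences was not tested. In the respiratory chain list 12 of 19 tested members were higher in stroma and 0 higher in tumor (median difference 0.53), a smaller median than that of the sarcomere list. The respiratory chain counts became 4 and 0 with slide fixed and 6 and 0 in female hosts; over all alternatives they ran from 4 to 19 toward stroma and stood at 0 toward tumor.

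Fat and nerve transcripts were higher in stroma too. In the adipocyte list 19 of 22 tested members were higher in stroma and 2 higher in tumor (median difference 4.44). Cfd, the complement factor D that adipocytes secrete as adipsin, was 4.57, 7.32 and 8.54 in stroma and -6.69, -2.61 and 4.04 in tumor and differed by 8.47 ± 0.92 (SE, adjusted p = 1.04e-06), the largest difference of any gene named by rule. Adiponectin, Adipoq, differed by 7.77 ± 0.85 (SE, adjusted p = 1.11e-06) and the lipid droplet protein Cidec by 7.83 ± 0.91 (SE, adjusted p = 2.04e-06). For Adipoq and Cidec the groups overlapped, and the perilipin Plin4 (7.24 ± 0.67 SE, adjusted p = 2.14e-07) was separated. Against the list, the enzymes of new fatty acid synthesis were higher in tumor: Fasn by -2.54 ± 0.35 (SE, adjusted p = 1.17e-05) and Acaca by -1.72 ± 0.17 (SE, adjusted p = 4.49e-07), each without overlap. Among Schwann cell and myelin genes 9 of 12 tested members were higher in stroma and 1 higher in tumor (median difference 3.66), among them the glial calcium-binding protein gene S100b (4.63 ± 0.35 SE, adjusted p = 4.67e-08). Keratinocyte genes were mostly not measured: 7 of 18 listed genes were tested, 2 were higher in stroma and 1 in tumor. The adipocyte counts became 10 and 2 of 13 (median 2.88) under the strict filter. The Schwann cell counts became 3 and 1 of 6 (median 1.20) under the strict filter. The Schwann call toward tumor, Cnp, ended under several alternatives, among them quantile scaling (-0.43), slide fixed (-0.44) and 10 that each left out a single array. The keratinocyte median changed sign under 4 of 35 alternatives.

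Vessel genes were higher in stroma. Of the blood endothelial genes, 17 of 18 tested members were higher in stroma and 0 higher in tumor (median difference 1.62). The endothelial factor Erg was -1.36, -0.79 and -0.44 in stroma and -4.17, -3.07 and -2.49 in tumor (2.32 ± 0.17 SE, adjusted p = 3.95e-08), and von Willebrand factor, Vwf, differed by 2.60 ± 0.26 (SE, adjusted p = 4.39e-07). Pecam1 and Cdh5, the junction proteins of endothelium, differed by 1.64 and 1.60, smaller values than those of the sarcomere and adipocyte lists. Of the lymphatic genes, 5 of 8 tested members were higher in stroma and 1 higher in tumor (median difference 4.06), with Lyve1 at 5.44, and Reln at 5.05. Lyve1 is also a member of the resident macrophage list. The lymphatic regulator Prox1, well above background on 8 stroma and 0 tumor arrays, was at least 2.95-fold higher in stroma. Pdpn, podoplanin, which fibroblasts and tumor cells also carry, was higher in tumor (-1.35 ± 0.22 SE, adjusted p = 5.71e-05). Of the smooth muscle and pericyte genes, 10 of 13 tested members were higher in stroma and 1 higher in tumor (median difference 2.04), with the smooth muscle myosin Myh11 at 4.42 and the actin Acta2 at 3.87. The mean of the endothelial list ran from 1.69 to 2.43 in stroma and -0.29 to 0.91 in tumor, without overlap. It follows from this that stroma was higher in 7 of 7 pairs and on 4 of 4 slides. The lymphatic counts became 1 and 1 of 4 (median 0.21) under the strict filter.

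The matrix genes divided between the tissues. Of the genes of resting fibroblasts and interstitial matrix, 16 of 18 tested members were higher in stroma and 1 higher in tumor (median difference 2.55). Dermatopontin, Dpt, was 1.38, 2.20 and 3.63 in stroma and -5.45, -2.62 and 1.26 in tumor, with a difference of 4.66 ± 0.53 (SE, adjusted p = 1.55e-06) and no overlap. Pdgfra, a receptor of fibroblasts, was higher in tumor (-1.25 ± 0.25 SE, adjusted p = 0.000415), a call that ended when slide entered as a fixed block (-0.90, adjusted p = 0.0894) and in male hosts alone. Among collagens 6 of 16 tested members were higher in stroma and 7 higher in tumor (median difference -0.32). The type I and IV chains were higher in stroma, with Col1a1 at 1.97, Col1a2 at 2.59, Col4a1 at 1.59 and Col4a2 at 1.55. The 3 type VI chains were higher in tumor, with Col6a1 at -2.02 ± 0.24 (SE, adjusted p = 2.04e-06), Col6a2 at -1.97 ± 0.28 (SE, adjusted p = 1.54e-05) and Col6a3 at -1.90 ± 0.22 (SE, adjusted p = 1.72e-06). Of the activated fibroblast genes, 5 of 14 tested members were higher in stroma and 6 higher in tumor (median difference -0.60). Inhba, the activin A subunit, was -2.54, -0.68 and 1.33 in stroma and 2.66, 3.55 and 4.11 in tumor, and Spp1, osteopontin, was 2.22, 3.60 and 5.48 in stroma and 7.30, 8.01 and 8.44 in tumor. Both were higher on every tumor array than on any stroma array, by -4.20 ± 0.38 (SE, adjusted p = 2.01e-07) and -4.09 ± 0.35 (SE, adjusted p = 1.15e-07). Acta2 (3.87) and the collagen cross-linking enzyme Lox (2.86) went the other way, and the Lox call ended in male hosts alone (1.07, adjusted p = 0.152). Of the metalloproteinase genes, 7 of 20 tested members were higher in stroma and 7 higher in tumor (median difference -0.096). The inhibitors Timp4 (7.58) and Timp3 (2.49) and the protease Mmp3 (4.46) were higher in stroma, while Mmp9 (-3.55) and the urokinase receptor Plaur (-2.92) were higher in tumor. The resting fibroblast counts became 10 and 1 of 12 under the strict filter. The collagen counts became 6 and 5 (median 0.16) with slide fixed, and the median changed sign under 3 of 35 alternatives. The activated fibroblast counts became 5 and 5 of 12 (median 0.17) under the strict filter, 4 and 4 (median 0.095) with slide fixed, 5 and 4 (median 0.35) in female hosts, 2 and 7 in male hosts and 3 and 6 without numbers 95 and 99, and the median changed sign under 3 of 35 alternatives. The metalloproteinase counts became 6 and 3 with slide fixed and 4 and 6 in male hosts, and the median changed sign under 10 of 35 alternatives.

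**Figure D3:**
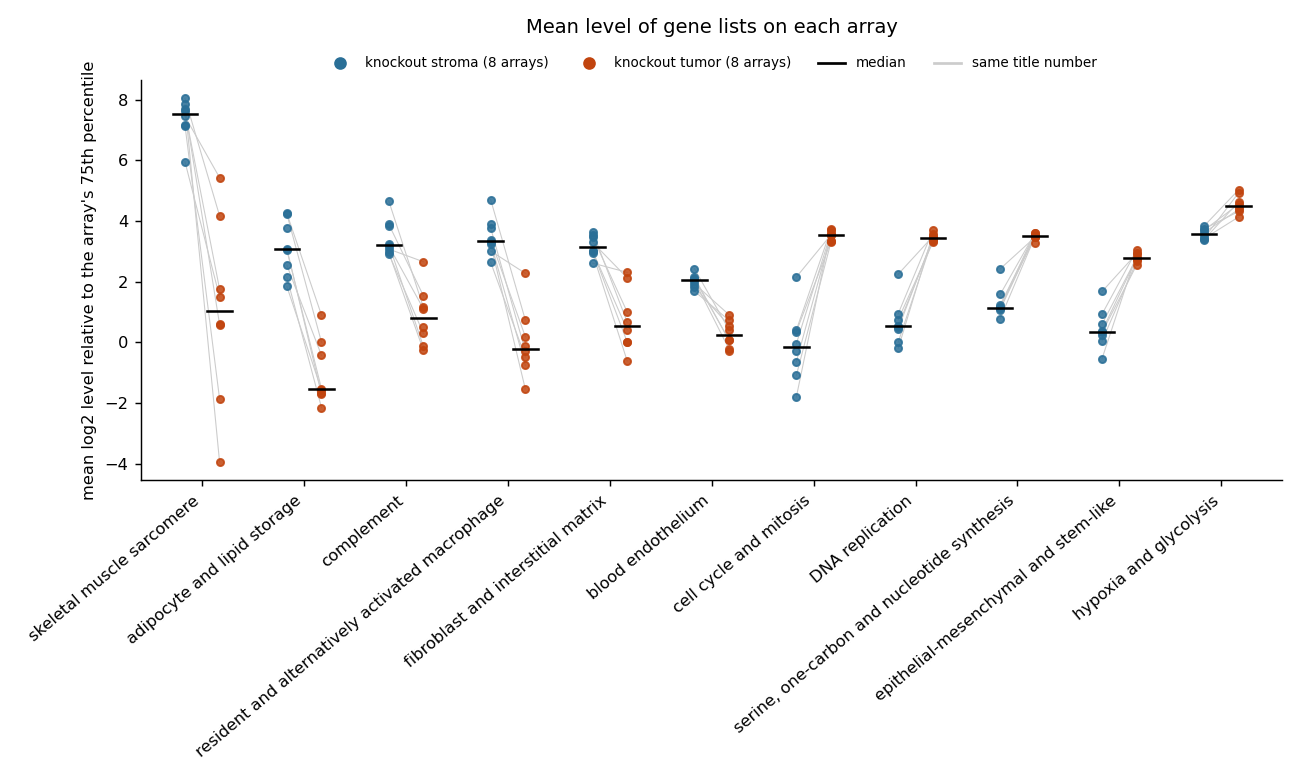
Mean log2 level of 11 gene lists on each array, with the median as a bar and grey lines joining arrays of the same title number. The sarcomere list runs from 5.96 to 8.04 in stroma and -3.94 to 5.43 in tumor, and the lists at the right are higher on the tumor arrays, with stroma 12 the highest stroma array in cell cycle and mitosis (2.15) and in DNA replication (2.25).

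Cell division genes were higher in tumor throughout. All 22 of 22 tested members of the mitosis list (median difference -3.67) and all 23 of 23 of the DNA replication list (median -2.94) were called higher in tumor. In each list the groups were separate for 21 members. Cdk1, the kinase that starts mitosis, was -4.56, -2.16 and 1.32 in stroma and 0.33, 2.37 and 2.74 in tumor, with a difference of -3.99 ± 0.63 (SE, adjusted p = 4.36e-05), and a stroma array overlapped the tumor arrays. The mitotic checkpoint kinase Ttk was -4.66, -2.96 and -0.52 in stroma and 0.99, 1.21 and 1.55 in tumor (-4.13 ± 0.42 SE, adjusted p = 5.65e-07). The chromosome segregation kinase Aurkb differed by -4.05 ± 0.42 (SE, adjusted p = 6.42e-07) and Cdc25c, the phosphatase that activates Cdk1, by -4.14 ± 0.46 (SE, adjusted p = 1.22e-06), both without overlap. The helicase subunit Mcm5 was -0.76, 0.86 and 2.85 in stroma and 4.22, 4.35 and 4.57 in tumor (-3.63 ± 0.36 SE, adjusted p = 4.33e-07), and Rrm2, which makes deoxynucleotides, differed by -3.50 ± 0.40 (SE, adjusted p = 1.81e-06). On the tumor arrays the mean of the mitosis list lay within a narrow range (3.31 to 3.73), whereas stroma ran from -1.79 to 2.15, with number 12 the highest. All 22 calls of the mitosis list and all 23 of the replication list were also made without stroma 12, tumor 15 and tumor 81, and without numbers 95 and 99.

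Because the mitotic genes moved together, the stretch upstream of their start sites was read from RefSeq (GRCm38.p6), where 16 of the 22 listed members had an entry. The search covered the 250 bases before the start, on both strands, for TTTGAA (the core of the cell cycle homology region) and for CCAAT (the box bound by NF-Y); in the stretches printed here no match of one overlaps a match of the other. The core occurred in 7 of 16 members (43.8%), against 16.3% of all 27025 windows of that length. The CCAAT box occurred in 14 of 16 members (87.5%), against 34.5% of all windows. A match describes the sequence and shows no binding. For comparison, CACGTG, the E-box of MYC, occurred in 1 of 15 ribosome biogenesis genes, against 6.05% of all windows. The last 150 bases before the start are shown 5′ to 3′ for 4 members that hold both motifs there, with every match on either strand in capitals: Cdk1 at chr10:69352913-69353062 on the minus strand, Top2a at chr11:99024190-99024339 on the minus strand, Ube2c at chr2:164769779-164769928 on the plus strand and Kif11 at chr19:37376232-37376381 on the plus strand. Their differences were -3.99, -3.72, -3.82 and -3.43.
Cdk1: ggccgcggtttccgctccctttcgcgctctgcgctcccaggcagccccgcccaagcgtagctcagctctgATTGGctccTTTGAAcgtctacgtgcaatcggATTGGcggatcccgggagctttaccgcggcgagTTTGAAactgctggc
Top2a: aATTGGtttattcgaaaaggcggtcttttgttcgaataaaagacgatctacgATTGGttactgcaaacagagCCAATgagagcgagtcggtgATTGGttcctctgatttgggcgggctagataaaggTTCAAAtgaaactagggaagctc
Ube2c: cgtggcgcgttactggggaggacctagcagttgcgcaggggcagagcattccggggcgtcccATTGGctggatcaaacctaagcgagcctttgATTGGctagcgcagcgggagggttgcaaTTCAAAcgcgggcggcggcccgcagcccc
Kif11: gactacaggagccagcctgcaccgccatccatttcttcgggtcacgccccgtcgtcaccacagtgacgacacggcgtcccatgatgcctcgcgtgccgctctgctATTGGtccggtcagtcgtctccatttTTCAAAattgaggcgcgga

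Genes that supply dividing cells with ribosomes and building blocks were also higher in tumor. Of the ribosome biogenesis genes and MYC targets, 0 of 20 tested members were higher in stroma and 17 higher in tumor (median difference -1.64). Myc itself was 0.46, 1.39 and 2.65 in stroma and 4.36, 4.61 and 4.85 in tumor, a difference of -3.08 ± 0.22 (SE, adjusted p = 3.95e-08), with no overlap. Cad, the enzyme that starts pyrimidine synthesis, differed by -2.65 ± 0.18 (SE, adjusted p = 3.41e-08) and the nucleolar protein Nolc1 by -2.34 ± 0.16 (SE, adjusted p = 3.5e-08). Of the ribosomal protein genes, 0 of 21 tested members were higher in stroma and 15 higher in tumor (median difference -0.70), a smaller shift. Of the translation and tRNA charging genes, 1 of 18 tested members were higher in stroma and 13 higher in tumor (median difference -0.63). The reference genes had a median of -0.54, toward the same side. With another background correction (normexp) and quantile scaling, the ribosomal protein counts were 1 and 10 (median -0.21). Of the genes of serine, one-carbon and nucleotide synthesis, 1 of 19 tested members were higher in stroma and 18 higher in tumor (median difference -2.06). Phgdh, the first enzyme of serine synthesis, was 0.41, 2.85 and 4.77 in stroma and 6.13, 6.35 and 6.58 in tumor (-3.61 ± 0.40 SE, adjusted p = 1.16e-06), and the next enzyme Psat1 differed by -3.65 ± 0.36 (SE, adjusted p = 3.86e-07). The mitochondrial folate enzyme Mthfd1l differed by -3.86 ± 0.35 (SE, adjusted p = 1.99e-07), and all 3 were separated on the arrays. Glycolysis and hypoxia genes gave a mixed list, in which 4 of 20 tested members were higher in stroma and 13 higher in tumor (median difference -1.16). Pgam1 (-3.06 ± 0.30 SE, adjusted p = 3.43e-07) and the liver-type phosphofructokinase Pfkl (-3.03 ± 0.23 SE, adjusted p = 4.49e-08) were higher in tumor, as was Car9, the hypoxia-induced carbonic anhydrase (-3.13 ± 0.30 SE, adjusted p = 3.21e-07). Hk2, the hexokinase of muscle and fat as well as of tumors, was higher in stroma (2.45 ± 0.25 SE, adjusted p = 6.45e-07).

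The 15 largest differences toward tumor were those of genes with varied roles. Sox2, a factor of stem cells and neural progenitors, was -6.76, -4.55 and -1.23 in stroma and 0.25, 1.06 and 1.60 in tumor, a difference of -5.34 ± 0.55 (SE, adjusted p = 5.55e-07). Sox2 was well above background on 4 stroma and 8 tumor arrays. Pax6, a factor of the eye and brain, was -7.17, -6.55 and -2.76 in stroma and -1.16, -0.46 and 0.022 in tumor (-5.30 ± 0.56 SE, adjusted p = 7.9e-07), and it was well above background on 2 stroma and 8 tumor arrays. For both genes the stroma arrays spread widely, with number 12 the highest, and the tumor arrays lay close together. Dmrta2, a factor of the developing forebrain, differed by -5.46 ± 0.46 (SE, adjusted p = 1.08e-07) and Gap43, the growth cone protein of neurons, by -5.27 ± 0.53 (SE, adjusted p = 4.74e-07). Crhbp, a secreted binder of corticotropin-releasing hormone, gave the largest difference toward tumor (-5.54 ± 0.48 SE, adjusted p = 1.4e-07), followed by Wfdc2 (-5.54) and the BMP antagonist Grem1 (-5.53). Ssxb1, a member of an X-linked family known from cancer and testis, differed by -5.26 ± 0.43 (SE, adjusted p = 8.14e-08). After these values were seen, its family was counted, and 4 of 4 tested Ssxb genes were higher in tumor (Ssxb8 at -5.09, Ssxb10 at -3.77 and Ssxb9 at -2.79). These genes are near-identical copies that probes may not tell apart. Ssxb1 and Ssxb8 were each well above background on 3 of 8 stroma arrays.

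Of the list of epithelial-mesenchymal and stem-like genes, 2 of 17 tested members were higher in stroma and 14 higher in tumor (median difference -2.48). Hmga2, a chromatin protein of embryonic and tumor cells, was -2.32, 0.21 and 3.03 in stroma and 4.73, 5.17 and 5.70 in tumor (-4.71 ± 0.51 SE, adjusted p = 9.79e-07). Lin28b, which blocks maturation of let-7, differed by -4.53 ± 0.53 (SE, adjusted p = 2.21e-06) and the RNA-binding Igf2bp3 by -4.01 ± 0.28 (SE, adjusted p = 3.5e-08), all without overlap. The mesenchymal factors Twist1 (-2.62), Twist2 (-3.63), Snai1 (-2.57) and Snai2 (-2.08) were higher in tumor as well. The neural and muscle cadherin Cdh2 was higher in stroma (2.19 ± 0.25 SE, adjusted p = 1.4e-06). Of the Hox and other positional genes, 5 of 20 tested members were higher in stroma and 11 higher in tumor (median difference -0.85). Hoxa11, which patterns the forearm and shank, was -3.45, -2.57 and -0.039 in stroma and 1.52, 2.21 and 2.55 in tumor (-4.39 ± 0.36 SE, adjusted p = 8.33e-08), and Hoxd13, of the digits, differed by -4.76 ± 0.59 (SE, adjusted p = 3.71e-06). Tbx4, the hindlimb factor, was higher in stroma (4.24 ± 0.34 SE, adjusted p = 7.56e-08), as was Tbx15 (2.72 ± 0.21 SE, adjusted p = 5.39e-08), while the hindlimb factor Pitx1 was higher in tumor (-3.47 ± 0.37 SE, adjusted p = 8.39e-07). Positional identity genes therefore differed in both directions between the tissues, with no overlap for these named members. Hoxd13 was well above background on 4 of 8 stroma arrays and Tbx4 on 2 of 8 tumor arrays. In a count over symbols made after the values were seen, 20 of 31 tested Hox genes were higher in tumor and 5 in stroma. Among Sox genes the tumor held more Sox2, Sox9 (-2.08) and Sox4 (-1.98), and the stroma more Sox6 (7.41), Sox10 (3.71), Sox17 (2.83) and Sox18 (1.44), factors of muscle, Schwann cells and endothelium. Sox10 was well above background on 1 of 8 tumor arrays. The positional gene counts became 3 and 9 of 14 under the strict filter, 2 and 10 with slide fixed and 2 and 8 of 19 in male hosts.

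Growth factor and signalling genes split by member. Of the growth factor and receptor genes, 7 of 22 tested members were higher in stroma and 12 higher in tumor (median difference -0.60). The EGF receptor ligands Ereg (-5.12 ± 0.61 SE, adjusted p = 2.46e-06) and Areg (-4.56 ± 0.52 SE, adjusted p = 1.59e-06) were higher in tumor, whereas their receptor Egfr was higher in stroma: its levels were 1.83, 2.51 and 3.84 in stroma and -4.00, -1.40 and 0.71 in tumor, a difference of 4.09 ± 0.36 (SE, adjusted p = 1.41e-07). Neither the ligands nor the receptor overlapped between the tissues. Igf2 (4.69 ± 0.47 SE, adjusted p = 4.24e-07) and Igf1 (3.71) were higher in stroma. Etv4, a transcription factor induced by receptor tyrosine kinase signalling, was higher in tumor (-3.68 ± 0.35 SE, adjusted p = 2.76e-07). Of the TGF-beta, BMP and WNT genes, 9 of 20 tested members were higher in stroma and 8 higher in tumor (median difference 0.25). Bmp4 was higher in stroma (2.93), as was Wnt4 (7.70), which ranked among the 15 largest, and Wnt5a (-3.13) and the WNT inhibitor Dkk2 (-3.81) were higher in tumor. Of the p53 pathway genes, 10 of 18 tested members were higher in stroma and 7 higher in tumor (median difference 0.61). The tumor suppressor gene Cdkn2a was -1.57, 0.94 and 2.73 in stroma and 4.77, 5.72 and 6.30 in tumor (-4.70 ± 0.49 SE, adjusted p = 6.44e-07), and Trp53 was 0.52, 0.94 and 2.14 in stroma and 2.28, 2.89 and 3.48 in tumor (-1.79 ± 0.19 SE, adjusted p = 8.58e-07). Both were higher on every tumor array, while the p53 target genes Phlda3 (3.41 ± 0.23 SE, adjusted p = 2.99e-08), Ccng1 (2.97) and Cdkn1a (2.10) were higher on every stroma array. Of the heat shock and unfolded protein genes, 5 of 16 tested members were higher in stroma and 10 higher in tumor (median difference -0.51). Of 14 reference genes 3 were higher in stroma and 8 in tumor (median -0.54). The growth factor counts became 4 and 9 of 16 under the strict filter and 4 and 9 in male hosts. The TGF-beta, BMP and WNT counts became 5 and 8 in male hosts. The p53 pathway counts became 6 and 5 with slide fixed and 8 and 4 in male hosts. The heat shock counts became 3 and 7 without numbers 95 and 99. The reference gene counts became 1 and 7 with slide fixed or in female hosts.

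Macrophage genes were higher in stroma. Of the list for resident and alternatively activated cells, 18 of 20 tested members were higher in stroma and 1 higher in tumor (median difference 3.11). Retnla, the secreted marker of alternative activation, was 1.26, 3.52 and 4.95 in stroma and -6.92, -3.96 and -1.55 in tumor, a difference of 7.53 ± 0.54 (SE, adjusted p = 3.65e-08). The scavenger receptor Cd163 was 1.70, 2.85 and 4.81 in stroma and -6.53, -3.02 and 0.91 in tumor (6.03 ± 0.67 SE, adjusted p = 1.19e-06), and the lectin Cd209d differed by 6.89 ± 0.62 (SE, adjusted p = 1.84e-07). For all 3 genes the lowest stroma array was above the highest tumor array. Mgl2 was the member higher in tumor (-1.74 ± 0.14 SE, adjusted p = 7.71e-08), but that holds for its brightest probe, and the mean of all its probes gave 1.37 (adjusted p = 0.000266) in the other direction. Of the pan-macrophage and monocyte genes, 12 of 17 tested members were higher in stroma and 0 higher in tumor (median difference 1.25), a smaller median: Adgre1, which encodes F4/80, differed by 2.01, Csf1r by 1.25 and Ccr2 by 2.09. Cd68 (-0.059) and Tyrobp (0.33) did not pass. The pan-macrophage counts became 7 and 0 with slide fixed or without numbers 95 and 99 and 5 and 0 in male hosts. Genes of macrophage polarisation in tumors were mixed, and 3 of 13 tested members were higher in stroma and 4 higher in tumor (median difference -0.16). Arginase, Arg1, was higher in tumor (-3.25 ± 0.83 SE, adjusted p = 0.00266) and ended its call when slide entered as a fixed block (-2.43, adjusted p = 0.134). The arginine transporter Slc7a2 was higher in stroma (2.88 ± 0.35 SE, adjusted p = 3.04e-06). All 16 of 16 complement genes were higher in stroma (median 2.45; 12 of 16 with slide as a fixed block), including C3 (3.80 ± 0.35 SE, adjusted p = 2.08e-07), C4b (4.80 ± 0.50 SE, adjusted p = 6.09e-07) and C6 (5.15 ± 0.54 SE, adjusted p = 6.96e-07). The polarisation counts became 1 and 1 with slide fixed and 1 and 3 in male hosts; over all alternatives they ran from 1 to 3 toward stroma and from 1 to 4 toward tumor, and the median changed sign under 6 of 35 alternatives.

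Lymphoid and granulocyte lists were mixed. Of the B cell and plasma cell genes, 9 of 10 tested members were higher in stroma and 1 higher in tumor (median difference 1.61), led by Ms4a1, which encodes CD20 (3.1 ± 0.67 SE, adjusted p = 0.000776), a call that ended in male hosts alone (2.07). The B cell counts became 4 and 1 of 5 (median 0.83) under the strict filter, 5 and 1 with slide fixed and 4 and 1 in male hosts. Sdc1, syndecan 1, was higher in tumor (-3.13 ± 0.34 SE, adjusted p = 1.05e-06); it marks plasma cells and is also made by epithelial and tumor cells. Of the mast cell genes, 8 of 10 tested members were higher in stroma and 2 higher in tumor (median difference 1.92), with the chymase Mcpt4 at 3.51 ± 0.38 (SE, adjusted p = 8.47e-07). The mast cell counts became 2 and 1 in male hosts and 5 and 2 without numbers 95 and 99. Of the MHC class II and dendritic cell genes, 8 of 16 tested members were higher in stroma and 1 higher in tumor (median difference 0.76), with Cd209a at 5.19 ± 0.58 (SE, adjusted p = 1.4e-06). The class II and dendritic cell counts became 5 and 1 with slide fixed or in female hosts, 4 and 0 in male hosts and 3 and 1 without numbers 95 and 99; over all alternatives they ran from 3 to 10 toward stroma and from 0 to 2 toward tumor. Of the T cell genes, 3 of 17 tested members were higher in stroma (Cd28, Cd4 and Cd247) and 1 higher in tumor (Lck). The median difference was -0.015, and Cd3e (-0.22) and Cd8a (-0.10) did not pass. Of the cytotoxic and NK cell genes, 1 of 14 tested members were higher in stroma and 4 higher in tumor (median difference -0.11). Prf1, perforin, was -3.27, -2.71 and -2.06 in stroma and -2.01, -1.62 and 0.55 in tumor (-1.59 ± 0.33 SE, adjusted p = 0.000494), higher on every tumor array, and Eomes differed by -2.69 ± 0.40 (SE, adjusted p = 2.4e-05). Granzyme B, Gzmb, differed by -2.18 ± 0.69 (SE, adjusted p = 0.0112) with overlap, and ended its call without numbers 95 and 99 (-2.32, adjusted p = 0.0619), with slide or scan day as a fixed block and in female hosts alone. Of the neutrophil genes, 3 of 11 tested members were higher in stroma (Camp, Mmp8 and Trem1) and 0 higher in tumor (median difference 0.30). S100a8 (-0.071) and S100a9 (0.23) did not pass. The neutrophil counts became 1 and 0 of 9 under the strict filter, 0 and 0 (median -0.11) in male hosts and 1 and 0 without numbers 95 and 99 or without the 3 arrays; over all alternatives they ran from 0 to 5 toward stroma and stood at 0 toward tumor, and the median changed sign under 1 of 35 alternatives. The T cell counts became 1 and 0 with slide fixed and 1 and 1 in male hosts, and the median changed sign under 15 of 35 alternatives. The cytotoxic cell counts became 1 and 2 of 8 under the strict filter and 0 and 2 with slide fixed or in female hosts or without numbers 95 and 99; over all alternatives they ran from 0 to 1 toward stroma and from 2 to 5 toward tumor, and the median changed sign under 7 of 35 alternatives.

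Cytokine and interferon genes were mixed. Of the neutrophil and monocyte chemokines, 4 of 15 tested members were higher in stroma and 5 higher in tumor (median difference 0.27). Ccl11, the eosinophil attractant eotaxin, was higher in stroma (3.39 ± 0.35 SE, adjusted p = 5.58e-07) without overlap, and Cxcl1 was higher in tumor (-2.20 ± 0.44 SE, adjusted p = 0.000397), a call that ended in female hosts alone (-1.39, adjusted p = 0.0596). Of the IL-1 and IL-6 family, 3 of 17 tested members were higher in stroma and 6 higher in tumor (median difference -0.39). Il11 was -4.16, -2.73 and -2.02 in stroma and -0.057, 1.33 and 2.93 in tumor (-4.20 ± 0.35 SE, adjusted p = 1.04e-07), and the receptor chain Il1rap differed by -3.14 ± 0.25 (SE, adjusted p = 7.24e-08), both higher on every tumor array. Il6 (0.85), Il1b (0.076) and Tnf (-0.54), the cytokines most often tied to cachexia, did not pass. Of the type I interferon genes, 7 of 17 tested members were higher in stroma and 0 higher in tumor (median difference 0.87). The type I interferon counts became 1 and 0 with slide fixed or in male hosts or without numbers 95 and 99, 3 and 0 in female hosts and 4 and 0 without the 3 arrays; over all alternatives they ran from 1 to 12 toward stroma and stood at 0 toward tumor. Without the replicate block they were 4 and 0. Of the interferon gamma genes, 3 of 15 tested members were higher in stroma and 3 higher in tumor (median difference 0.069). The interferon gamma counts became 1 and 1 with slide fixed or in female hosts or without numbers 95 and 99 and 1 and 4 in male hosts; over all alternatives they ran from 1 to 6 toward stroma and from 1 to 4 toward tumor, and the median changed sign under 7 of 35 alternatives. Of the MHC class I genes, 0 of 13 tested members were higher in stroma and 3 higher in tumor (median difference -0.075). The MHC class I counts became 0 and 1 with slide fixed; over all alternatives they ran from 0 to 2 toward stroma and from 1 to 3 toward tumor, and the median changed sign under 10 of 35 alternatives. Of the immune checkpoint genes, 5 of 13 tested members were higher in stroma and 1 higher in tumor (median difference 0.15). The checkpoint counts became 3 and 0 with slide fixed, 1 and 1 in male hosts and 2 and 0 without numbers 95 and 99; over all alternatives they ran from 1 to 6 toward stroma and from 0 to 3 toward tumor, and the median changed sign under 6 of 35 alternatives. The chemokine counts became 3 and 3 of 10 (median 0.0041) under the strict filter, 2 and 2 with slide fixed, 5 and 0 in female hosts, 3 and 3 without numbers 95 and 99 and 4 and 2 of 14 without the 3 arrays; over all alternatives they ran from 2 to 6 toward stroma and from 0 to 6 toward tumor, and the median changed sign under 3 of 35 alternatives. The IL-1 and IL-6 counts became 3 and 4 of 14 (median 0.16) under the strict filter and 6 and 5 (median 0.44) in female hosts, and the median changed sign under 2 of 35 alternatives.

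**Figure D4:**
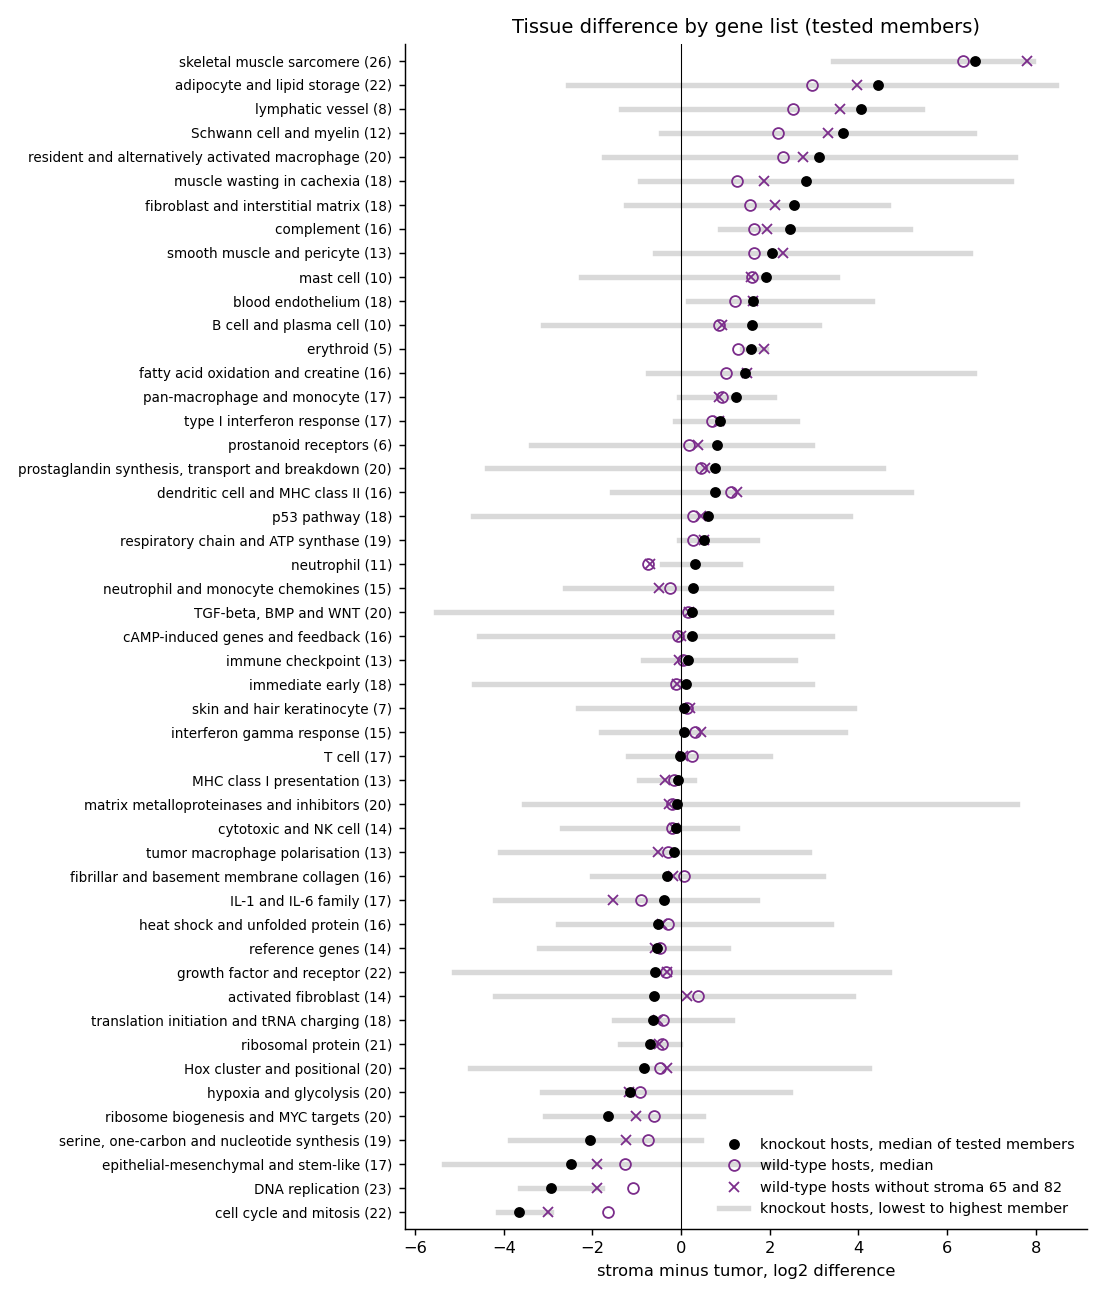
Median stroma minus tumor log2 difference of each gene list in knockout hosts (filled), with the lowest to highest member as a grey bar, beside wild-type hosts with all arrays (open) and without wild-type stroma 65 and 82 (crosses); the number of tested members is in parentheses. Sarcomere genes lie at the top (median 6.63) and cell cycle genes at the bottom (-3.67).

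The genes of prostaglandin synthesis were divided by enzyme. Of the synthesis, transport and breakdown list, 10 of 20 tested members were higher in stroma and 5 higher in tumor (median difference 0.77). Ptgs2, the inducible cyclooxygenase, was -3.00, -1.66 and 0.79 in stroma and 1.98, 2.85 and 4.09 in tumor, a difference of -4.39 ± 0.46 (SE, adjusted p = 7.46e-07). Pla2g4a, the cytosolic phospholipase that releases arachidonic acid, was -1.10, 0.16 and 1.62 in stroma and 2.13, 2.68 and 3.30 in tumor (-2.66 ± 0.30 SE, adjusted p = 1.33e-06). Ptgs1, the constitutive cyclooxygenase, was 0.19, 0.54 and 0.80 in stroma and -3.03, -1.69 and -0.55 in tumor, a difference of 2.41 ± 0.23 (SE, adjusted p = 2.46e-07) in the opposite direction. The tissues did not overlap for these 3 genes, with Ptgs2 and Pla2g4a higher on every tumor array and Ptgs1 higher on every stroma array. The secreted phospholipases Pla2g2d (3.04 ± 0.26 SE, adjusted p = 1.07e-07) and Pla2g5 (3.62 ± 0.51 SE, adjusted p = 1.47e-05) were higher in stroma, and Pla2g5 was well above background on 1 of 8 tumor arrays. Among the prostaglandin E synthases, Ptges3 was higher in tumor (-0.82 ± 0.14 SE, adjusted p = 0.000109, no overlap). Ptges, the inducible form, was 4.22, 4.61 and 5.33 in stroma and 4.79, 4.97 and 5.29 in tumor, and its difference of -0.34 ± 0.14 (SE, adjusted p = 0.0367) ended without any of 11 single arrays, among them stroma 99 (-0.27) and tumor 95 (-0.29), and without numbers 95 and 99 (-0.16, adjusted p = 0.389). Ptges2 (-0.16, adjusted p = 0.282) did not pass. The synthesis counts became 6 and 5 of 15 (median 0.088) under the strict filter and 9 and 3 with slide fixed.

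Synthases of other prostanoids and the breakdown enzyme were higher in stroma. Hpgd, which inactivates prostaglandin E2, was -1.91, -1.18 and 1.11 in stroma and -6.80, -6.01 and -1.91 in tumor, a difference of 4.54 ± 0.52 (SE, adjusted p = 1.54e-06), and it was well above background on 8 stroma and 2 tumor arrays. The highest tumor array reached the range of stroma, so the groups met there. The prostacyclin synthase Ptgis differed by 1.89 ± 0.27 (SE, adjusted p = 1.34e-05), and the thromboxane synthase Tbxas1 by 1.41 ± 0.41 (SE, adjusted p = 0.00684), a call that ended when slide entered as a fixed block (1.35, adjusted p = 0.094) and in male hosts alone. The prostaglandin D synthase of immune cells, Hpgds, differed by 2.53 ± 0.62 (SE, adjusted p = 0.00199) and lost the call without numbers 95 and 99 (1.91, adjusted p = 0.0584) and in male hosts alone. In the leukotriene branch Alox5 (3.20 ± 0.37 SE, adjusted p = 1.96e-06) and Ltc4s (2.79 ± 0.28 SE, adjusted p = 4.08e-07) were higher in stroma and Alox5ap (0.61, adjusted p = 0.113) did not pass. The exporter Abcc4 was higher in stroma (0.93 ± 0.14 SE, adjusted p = 2.12e-05), and the importer Slco2a1 (-0.37, adjusted p = 0.192) did not pass. The reductase Ptgr1 was higher in tumor (-1.18 ± 0.27 SE, adjusted p = 0.00119), which ended when slide entered as a fixed block (adjusted p = 0.0639). Ptgds (0.12) and Akr1b3 (0.087) did not pass and had no settled direction, and Alox15 was not bright enough to be tested.

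**Figure D5:**
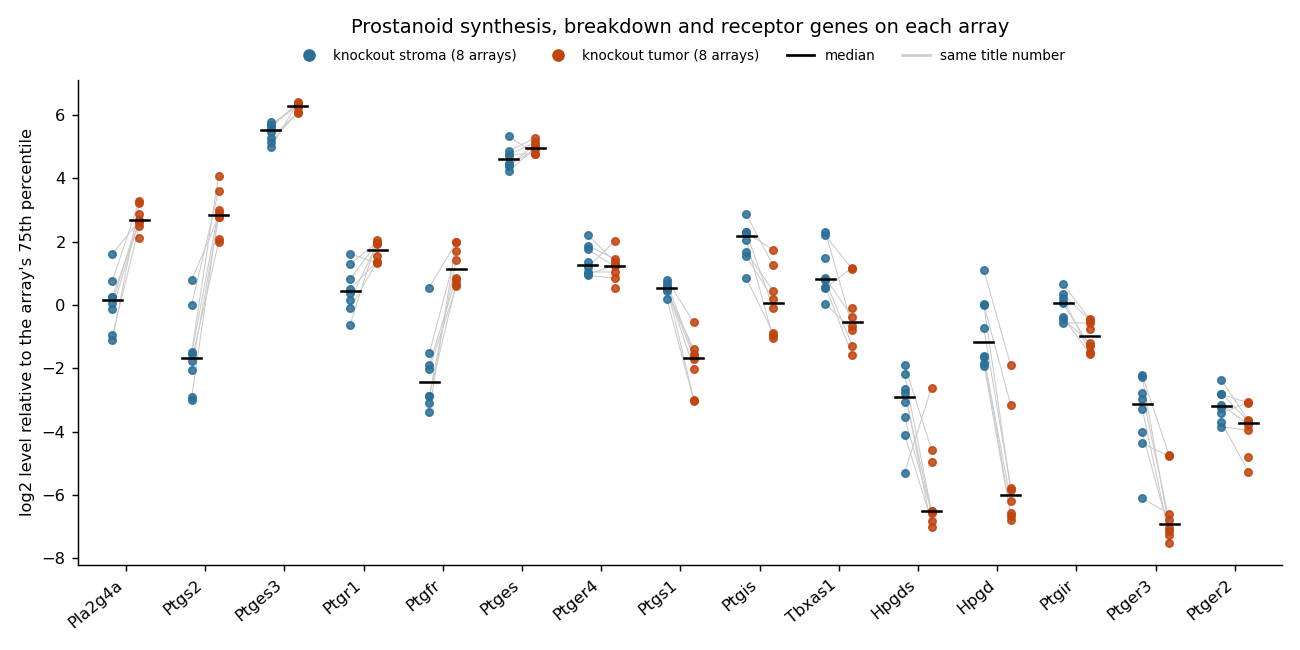
Log2 level relative to the array's 75th percentile of 15 genes of prostanoid synthesis, breakdown and reception on each array, with the median as a bar and grey lines joining arrays of the same title number. Ptgs2 runs from -3.00 to 0.79 in stroma and 1.98 to 4.09 in tumor and Ptgs1 from 0.19 to 0.80 in stroma and -3.03 to -0.55 in tumor, each without overlap and in opposite directions.

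The receptors for prostanoids were measured only in part. Of 9 listed receptor genes 6 were tested, of which 4 were higher in stroma and 1 higher in tumor; Ptger1, Ptgdr and Ptgdr2 were not bright enough. The receptor counts became 1 and 1 of 3 (median 0.19) under the strict filter, 2 and 1 of 5 in female hosts, 1 and 1 in male hosts and 1 and 1 of 5 without numbers 95 and 99; over all alternatives they ran from 1 to 4 toward stroma and stood at 1 toward tumor. With quantile scaling they were 2 and 1. Ptger2, the gene deleted in these hosts, was well above background on 8 stroma and 7 tumor arrays. In stroma 12, 49, 51, 59B, 15, 81, 95 and 99 its level was -2.82, -3.25, -2.80, -3.70, -2.38, -3.41, -3.84 and -3.14. In tumor 12, T149, 51, 59B, 15, 81, 95 and 99 it was -3.09, -4.81, -3.67, -5.26, -3.64, -3.08, -3.95 and -3.78. The arrays overlapped, and the difference was 0.73 ± 0.28 (SE, adjusted p = 0.0301). The call ended without stroma 12 (0.70), stroma 51 (0.68), stroma 15 (0.59), tumor T149 (0.64), tumor 59B (0.56), tumor 15 (0.71), tumor 95 (0.69) or tumor 99 (0.70), and fell to 0.41 with quantile scaling (adjusted p = 0.236). Whether the probe falls inside the deleted stretch is not given in the sources used here, so its signal checks no genotype.

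Ptgfr, the prostaglandin F receptor, was the receptor higher in tumor, at -3.37, -2.44 and 0.56 in stroma and 0.59, 1.15 and 1.99 in tumor (-3.38 ± 0.44 SE, adjusted p = 5.94e-06), without overlap. Ptger3, which encodes the Gi-coupled EP3, was -6.11, -3.12 and -2.21 in stroma and -7.50, -6.92 and -4.75 in tumor and differed by 2.96 ± 0.51 (SE, adjusted p = 9.98e-05); it was well above background on 7 stroma arrays and 1 tumor array. The prostacyclin receptor Ptgir differed by 0.98 ± 0.19 (SE, adjusted p = 0.000262) and ended its call in male hosts alone (0.68, adjusted p = 0.0913). The thromboxane receptor Tbxa2r differed by 0.90 ± 0.27 (SE, adjusted p = 0.00885), and its call ended without numbers 95 and 99 (0.94, adjusted p = 0.0566) and with quantile scaling (0.57). Ptger4, which encodes EP4, the other prostaglandin E2 receptor coupled to Gs, was 0.94, 1.28 and 2.21 in stroma and 0.53, 1.24 and 2.01 in tumor. Its difference of 0.19 (95% interval -0.26 to 0.65) did not pass. Of the cAMP-induced genes and their feedback, 7 of 16 tested members were higher in stroma and 5 higher in tumor (median difference 0.25). The phosphodiesterases Pde4d (3.41 ± 0.39 SE, adjusted p = 1.45e-06) and Pde4b (2.81 ± 0.31 SE, adjusted p = 1.3e-06), which break down cAMP, were higher in stroma without overlap, while the nuclear receptor Nr4a2 was higher in tumor (-2.31 ± 0.27 SE, adjusted p = 2.46e-06). Of the immediate early genes, 5 of 18 tested members were higher in stroma and 3 higher in tumor (median difference 0.10). The immediate early counts became 1 and 3 with slide fixed and 1 and 2 in male hosts; over all alternatives they ran from 1 to 7 toward stroma and from 2 to 6 toward tumor, and the median changed sign under 3 of 35 alternatives. The cAMP counts became 4 and 4 with slide fixed or in male hosts, and the median changed sign under 1 of 35 alternatives.

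The same tissue difference was set beside that of wild-type hosts, whose arrays share no sample with it. Across genes the 2 differences correlated at r = 0.899, and at 0.938 without wild-type stroma 65 and 82; genes are not independent and the values are a description. In those 2 arrays the sarcomere mean was 2.36 and 0.87, against 4.97 to 8.77 on the other 6 wild-type stroma arrays, and their mitosis mean of 3.40 and 3.55 lay within the wild-type tumor range of 2.71 to 3.58. Wild-type stroma 9 lay at the other end, with a mitosis mean of -4.57. In wild-type hosts 9560 of 27120 genes (35.3%) passed, and 13442 (49.6%) without those 2 arrays, against 16662 (61.4%) for knockout hosts in the same fit. The median of the sarcomere list was 6.63 in knockout and 6.37 in wild-type hosts (7.80 without the 2 arrays). That of the mitosis list was -3.67 and -1.65 (-3.01), and that of resident macrophage genes 3.11 and 2.30 (2.75). Wild-type stroma 65 and 82 were left out because earlier results of these data placed them among tumor arrays. The values without them are shaped by that choice and are no independent support. The knockout side kept stroma 12, tumor 15 and tumor 81. Whether the tissue difference itself depended on genotype was tested by an interaction in limma. It passed for 0 of 27120 genes, with 6504 (24.0%) at an unadjusted p under 0.05 and a smallest adjusted p of 0.0714. Without wild-type stroma 65 and 82 it passed for 0 genes, with 2556 (9.42%) at an unadjusted p under 0.05. The count moved with single arrays, to 6237 when wild-type stroma 9 was left out. Leaving out wild-type stroma 4 gave 3762 genes, knockout stroma 12 gave 2221 and wild-type tumor 45 gave 1, and it was 0 without any other single array. It was 1779 without knockout stroma 12, tumor 15 and tumor 81, and 1819 in female hosts alone.

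The genes with the smallest p for this interaction are given as values that did not pass adjustment. The cytochrome P450 gene Cyp4f14 and the type VI collagen chain gene Col6a5 were well above background on no knockout tumor array, so they have only a bound there. Stroma exceeded tumor in knockout hosts at least 20.1-fold for Cyp4f14 and at least 6.58-fold for Col6a5, and no size is given for their interactions. Hoxa11 and its antisense transcript Hoxa11os lie on opposite strands of 1 locus. Hoxa11 differed by -4.39 in knockout and -1.38 in wild-type hosts, an interaction of -3.01 (95% interval -4.21 to -1.82), and Hoxa11os by -3.10 in knockout and -0.76 in wild-type hosts, an interaction of -2.34 (95% interval -3.26 to -1.42). The phosphatase Dusp7 differed by -1.61 in knockout and -0.34 in wild-type hosts, an interaction of -1.26 (95% interval -1.74 to -0.79), and the TNF-induced gene Tnfaip2 by 1.62 in knockout and -0.0028 in wild-type hosts, an interaction of 1.62 (95% interval 0.90 to 2.34). Each of these 6 had an adjusted p of 0.0714. Among prostanoid genes Ptgir stood at 0.98 in knockout and -0.65 in wild-type hosts, an interaction of 1.63 (95% interval 0.86 to 2.40), with an adjusted p of 0.0714, and Ptger2 at 0.73 in knockout and 0.95 in wild-type hosts, an interaction of -0.22 (95% interval -1.34 to 0.91), with an adjusted p of 0.829. For Ptgs2 the differences were -4.39 in knockout and -2.56 in wild-type hosts, an interaction of -1.83 (95% interval -3.98 to 0.33) (adjusted p = 0.279).

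Within knockout hosts the tissue difference was also compared between hosts labelled male and female. The sex by tissue interaction passed for 0 of 24736 genes by limma, with 1605 (6.49%) at an unadjusted p under 0.05. Values below are male minus female of stroma minus tumor. The smallest p was that of Chrdl2, a BMP inhibitor, whose male minus female value was -4.97 ± 0.72 (SE, adjusted p = 0.127), so stroma minus tumor was lower in males. Zfp783, a zinc finger gene, stood at -2.30 ± 0.38 (SE, adjusted p = 0.249) and the receptor phosphatase Ptprf at -2.45 ± 0.45 (SE, adjusted p = 0.249). The type IV collagen chains Col4a6 (2.46 ± 0.50 SE, adjusted p = 0.291) and Col4a5 (1.93 ± 0.44 SE, adjusted p = 0.306), neighbours on the X chromosome, and Setmar (1.24 ± 0.28 SE, adjusted p = 0.311) lay on the other side. Without knockout tumor 95 alone 32 genes passed. Without numbers 95 and 99, whose sex-linked genes went against the label, 66 genes passed; the male side then rested on numbers 15 and 81 alone, and their tumor arrays were the ones nearest to stroma. Sex and the 2 hosts cannot be told apart in that fit.

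Slide and pairing were checked for the main lists. Of 6 slides, 4 held both tissues, 1 held knockout tumor only and 1 knockout stroma only. Of the slides with both, 1 held stroma 51 and tumor 81, 1 stroma 12 and tumor 12, and 1 stroma 95 and tumor T149. Another held stroma 49 and 99 with tumor 95, so each difference within a slide rests on few arrays. With slide as a fixed block 12259 genes were called, 5010 higher in stroma and 7249 higher in tumor, and the median of all genes was -0.14. Within each of the 4 slides the sarcomere, adipocyte, endothelial, fibroblast, resident macrophage and complement lists were higher in stroma, and the mitosis, replication, ribosome biogenesis and one-carbon lists were higher in tumor. The list means differed in the same direction in 7 of 7 pairs for these 10 lists. For each of these lists the array means did not overlap between the tissues. The directions on slides and in pairs follow from that and are no further support. Where means overlapped they could differ, as in the activated fibroblast list, higher in stroma in 2 of 7 pairs and on 3 of 4 slides. For Ptgs2 the difference was negative on 4 of 4 slides (-6.14 to -2.01), and for Ptgs1 positive on 4 of 4 (1.14 to 3.22). The tissues did not overlap for either gene, so these signs could not differ and only the sizes are informative.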

How the data were processed

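Agilent one-colour arrays with 62976 spots were hybridised with Cy3-labelled cDNA copies of 200 ng total RNA with an integrity number above 7, per the labels. The authors deposited scanner files of Feature Extraction 10.7.3.1, per the file headers, in which the processed signal is an intensity after Agilent's own background correction. Outlier-flagged spots were dropped, which limma treats as missing (452 values on the knockout arrays). The log2 intensity had each array's 75th percentile over non-control probes subtracted, and spots of a probe were averaged. Of 56605 probes 32994 got a RefSeq symbol and the rest kept the name in the file. The brightest probe stood for a gene.

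Genes well above background on at least 8 of the 16 arrays, with at most 2 missing values, were tested with limma 3.58.1 in R 4.3.3. The model held 1 mean per tissue and sex and the title number as a random block (correlation 0.154), and p-values were adjusted by Benjamini-Hochberg over all 24736 genes. The interaction with genotype used all 32 arrays and 27120 genes. The fit was tested on simulated data of 24600 genes, of which 200 were changed. It recovered 55% of genes changed by 1 on the log2 scale and 90% of those changed by 2, with 7 false calls. On the arrays 67.4% of the genes tested were called, so these rates do not carry over to this comparison.

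The genes named were the prostanoid lists, the 15 largest called differences in each direction that did not overlap, up to 4 called members per list and 2 in the other direction, and the smallest p of each interaction. Not every gene picked in this way is given with its difference. The type I interferon, immune checkpoint, immediate early and heat shock lists, for example, are given by counts and medians alone. Other list members given without an error (Pecam1, Cdh5, Prox1, Col1a1, Col4a1, Col4a2, Csf1r, Cd68, Tyrobp, Cd3e, Cd8a, S100a8, S100a9, Il6, Il1b, Tnf, Igf1, Wnt5a, Dkk2, Snai1, Snai2, Twist1, Twist2, Top2a, Ube2c, Kif11 and further Sox and Ssxb genes) were chosen for their known role after their values were seen. The comparison, its 50 gene lists and its rules were chosen with earlier results of these data known. Some lists share members and are not separate results. For example, C1qa, C1qb and C1qc are on the complement and resident macrophage lists, and Des is on the sarcomere and smooth muscle lists. Counts of arrays and the signal over background set the precision; "at least" folds set the mean of the brighter tissue against the lowest signal well above background on each array. Alternatives covered background correction, scaling, filters, probe choice, blocks and samples. The authors' value table was not used, and a few genes are not reported here.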

Additional observations from a re-analysis of the deposited data

Results flagged for a closer look

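Each value here came from a single array that lay apart from the other 7 of its tissue: its gap to the nearest array, as a share of the range of the group, exceeded Dixon's 95% limit for 8 samples. Chance alone sets about 1 in 20 groups apart in this way. Of 100 list means checked, 6 (6%) had such an array, and of 581 groups of a named gene 23 (3.96%) did, so the shares lie near that level.

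Stroma 12 held 13 of the 29 values. Its DNA replication list stood at 2.251, where the nearest other array of that tissue was at 0.952, and its sarcomere list at 5.956, where the nearest other array of that tissue was at 7.142. Among 11 genes it was the lowest stroma array for Reln and Timp3 and the highest for the others: Cd276 (0.254, nearest -1.22), Cdc6 (0.682, nearest -1.125), Mmp9 (3.03, nearest -0.517), Nop58 (4.096, nearest 2.88), Ptgfr (0.556, nearest -1.527), Reln (-3.108, nearest -1.174), Rpl8 (7.868, nearest 7.075), Rps3 (7.354, nearest 6.428), Tbp (-0.111, nearest -0.423), Timp3 (3.091, nearest 3.881) and Trp53 (2.142, nearest 1.262). Stroma 12 was also the stroma array nearest to the tumor arrays on the first principal component.

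In stroma 15 the prostaglandin synthesis list stood at 1.492, where the nearest other array of that tissue was at 0.925, with Alox5 (2.768, nearest 1.322), Egfr (3.844, nearest 2.715) and Gadd45a (2.49, nearest 4.622) also apart. In stroma 95 the lymphoid chemokine Ccl21a (0.08, nearest 2.459) was apart.

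In tumor 81 the mast cell list stood at 0.488, where the nearest other array of that tissue was at -1.367, and the prostaglandin synthesis list at 0.97, where the nearest other array of that tissue was at 0.097. In tumor T149 the list of serine, one-carbon and nucleotide synthesis stood at 3.271, where the nearest other array of that tissue was at 3.46. Tumor 12 stood apart for Flt3 (1.214, nearest 0.065), and tumor 15 for Luzp4 (-0.584, nearest 0.28) and Ppargc1a (-0.747, nearest -4.208). Tumor 95 stood apart for Eif4a1 (7.597, nearest 7.185), Ptgdr2 (-2.346, nearest -4.345) and Ywhaz (5.283, nearest 4.884), and tumor 99 for Camp (-1.984, nearest -3.43) and Ptgdr (-5.363, nearest -6.716). For Ptgdr and Ptgdr2 the signals were too dim to be tested between the tissues.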

How the results depend on the processing

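Among alternatives to the calls of stroma against tumor, the total ran from 12259 (slide as a fixed block) to 19293 (array weights) and stayed within 1.5 times of 16668, and leaving out single arrays gave 15514 to 16580. Genes higher in stroma fell from 7549 to 4893 when every array had to be above background and to 5010 with slide as a fixed block. Past 2-fold 10532 genes and past 4-fold 4588 passed. With bright probes alone setting the scale, 54.07% of the calls were higher in stroma, against 45.29%. The interaction of genotype and tissue called 645 genes when every array had to be above background, 14755 with array weights, 788 with sex left out, 1819 in female hosts alone and 1779 without stroma 12, tumor 15 and tumor 81, against 0 otherwise; leaving out single arrays gave 0 to 6237. The interaction of sex and tissue called 1580 genes with array weights and 66 without numbers 95 and 99, and 0 to 32 without single arrays. The cause of these shifts was not tested, except that fewer genes were tested under the stricter filter. Thresholds of 0.01 and of 2- and 4-fold were not run for the interactions, since none was called.

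Arrays sharing a title number had correlated deviations of 0.25 (number 12), 0.19 (95), 0.22 (99) and 0.14 (81), but 0.065 (51), 0.067 (59B) and 0.032 (15), so not every pair exceeded 0.1. Only numbers 12, 95 and 99 correlated most with their own partner. For numbers 51, 59B, 15 and 81 an array of another number correlated more. The numbers were therefore kept only as a random block. Without the replicate block 16042 genes were called, and 15526 with the number as a fixed replicate block in the 7 pairs.

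Of the values of named genes under all alternatives, 9254 kept their direction and side of the threshold, 418 lost the call, 5 gained it and 16 changed sign. Mgl2 turned to 1.37 with the mean of all probes. The others had not been called: Akr1b3 (-0.014 with array weights, -0.012 in females, -0.014 without stroma 81, up to 0.20 without others), Ptger4 (-0.042 in males), Ptges2 (0.011 with normexp correction, 0.047 with bright probes) and Ptgds (-0.11 with normexp, -0.25 with quantile scaling, -0.26 with slide fixed, -0.24 in females, -0.45 without stroma 12, tumor 15 and tumor 81, -0.21 to -0.033 without stroma 99 or tumor 59B, 15 or 81, up to 0.47 without others). Of list medians 1687 moved by less than 1 SD and 61 by more. Dim genes limit precision: a gene below background on all arrays of a tissue has only a bound there.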

Other observations

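After the values were seen, 13 gene families were counted by symbol. Over all genes tested, 30.5% were higher in stroma and 36.9% higher in tumor. All 9 tested major urinary protein genes (Mup) were higher in stroma, with a median difference of 7.17. They are near-identical copies, and probes may not tell them apart. Each was well above background on only 1 or 2 of the 8 tumor arrays, so the sizes rest on dim tumor signals. The tissues overlapped for every Mup gene. Of the claudins, the tight junction proteins, 7 of 9 tested were higher in stroma and 1 in tumor (Cldn12). Of the forkhead genes, 9 of 27 tested were higher in stroma and 10 in tumor, near the shares of all genes tested. Those higher in tumor included Foxa1 (-5.14), well above background on 1 of 8 stroma arrays, and Foxm1 (-3.62), the regulator of mitotic genes. Those higher in stroma included the insulin-regulated Foxo1 (2.67) and Foxo3 (0.91). Of 10 tested Wnt genes 5 were higher in stroma and 3 in tumor. T-box genes gave 6 of 11 higher in stroma and 4 in tumor, and of 4 tested paired box genes 2 were higher in each tissue. Pax7, a factor of muscle stem cells, was well above background on no tumor array and at least 9.39-fold higher in stroma, and Pax9 (-4.79) was higher in tumor. Of 5 tested erythroid genes 5 were higher in stroma (median 1.58). The erythroid counts became 0 and 0 in male hosts.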
